A study of Mus musculus with 8 samples.

Results

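The RNA of 31 genes of B cells, plasma cells and immunoglobulin constant regions was described in 8 mouse mammary tumours. The genes were listed by symbol and matched through GENCODE M21 to the Ensembl identifiers of the count file, and all 31 were among its 50143 genes. The list holds the B cell receptor's partners, transcription regulators, complement and Fc receptors, receptors of survival factors, secretory proteins of plasma cells, and 11 constant region genes.

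The tumours were formed by Py230 cells, a mouse breast adenocarcinoma line, placed in mammary gland 4 of female C57BL/6 mice. The obese group held 4 tumours of mice given a high-fat diet (60% of calories from fat, 5.1 kcal/g), with an average body weight increase of 35%. The lean group held 4 tumours of mice given a regular diet (10% of calories from fat, 3.6 kcal/g). Mice of both groups had been ovariectomized at 6 weeks of age, began their diet 2 weeks later and were fed for 6 weeks before injection, and tumours were taken at day 56. Every tumour came from the same cell line, and the labels do not say which mouse each tumour came from, so the p-values below measure the spread between these samples.

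B cells recognise antigen through a membrane immunoglobulin whose signal is passed inward by the CD79 chains, and co-receptors raise or damp that signal. Survival of B cells and plasma cells depends on the cytokines BAFF and APRIL, between them. An activated B cell can become a plasma cell, which turns off much of the B cell programme and secretes antibody. In mammary tissue, plasma cells are known for secreting IgA joined by the J chain, which epithelial cells carry into milk.

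Libraries held 25.7 to 66.7 M counts, and levels are given as CPM, counts per 1 M counts scaled by TMM factors. Values per tumour are listed from tumour 1 to tumour 4 of each group, means are given ± SD over 4 tumours, and fold changes ± SE. In such bulk samples, fewer cells of a type and less RNA per cell cannot be told apart. Along the first principal component (88.6% of the variance), obese tumour 3 lay at 12.9, the other obese tumours between -136 and -96.5, and the lean tumours between 70.2 and 93.7. A gene was called where its edgeR adjusted p over all 14887 tested genes was under 0.05. Across all of them 28.4% were called lower and 30.9% higher in obese tumours, with a median log2 fold change of -0.04.

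Most B cell and plasma cell genes that could be tested were lower in tumours of obese mice. Of the 31 genes, 19 passed the filter on low counts, 1 fell below it and 11 had a count of 0 in every library. Of the 19, 15 were called lower (78.9%, against 28.4% of all tested genes), 1 was called higher (5.26%, against 30.9%) and 3 were not called. In either direction 59.2% of all tested genes were called, and in 57% the groups did not overlap. The median log2 fold change of the 19 was -3.22. Cr2 and Fcer2a reached the filter's level of 0.21 CPM only in lean tumours and had to differ for that reason. The shares and the median given here include both. The other 17 reached it in at least 1 tumour of both groups. Of these, Fcmr did so in 1 obese tumour, Ms4a1, Blk, Pou2af1 and Tnfrsf13c in 2, and Jchain and Mzb1 in 3. The filter asks for this level in 4 tumours, and these genes met it through the 4 lean tumours, which limits their calls as well. In 14 of the 19, every obese tumour lay below every lean tumour, as in 28.1% of all tested genes. In 1, Cd180, every obese tumour lay above every lean tumour, as in 29% of all tested genes. Summed over the list, levels were 80.3, 78.6, 85.8 and 132 CPM in obese tumours, against 230, 261, 211 and 325 CPM in lean tumours. Cd180 and Cd37 made up most of each obese sum, and Jchain was the largest part of each lean sum. Without obese tumour 3, 15 of the 20 genes then tested were called lower. These were 14 of the 15 called with all tumours and Tnfrsf17, which was below the filter with all tumours. In that fit more genes of the whole file were called lower as well, 5107 against 4221 with all tumours.

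**Figure D1:**
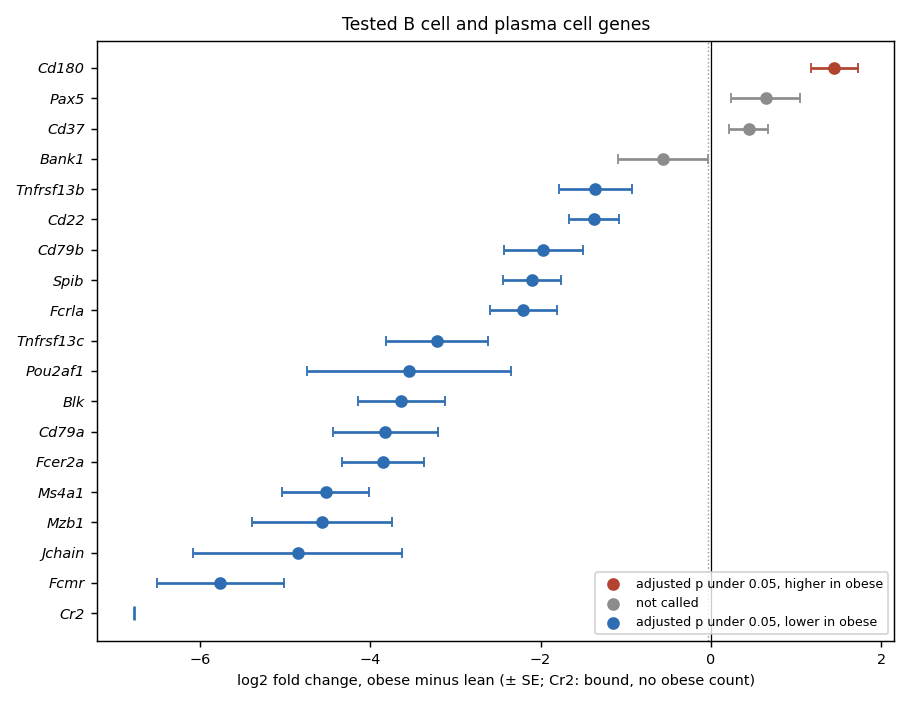
Log2 fold change of the 19 tested B cell and plasma cell genes, obese minus lean (x axis; points with bars, estimate ± SE from edgeR), with blue for genes lower and red for genes higher in obese tumours at an adjusted p under 0.05. Cr2 had no count in obese tumours and is drawn at its bound of -6.78. Genes on the left reach far below the median of all genes (dotted line at -0.04), and Cd180, at 1.45, stands alone on the right among called genes.

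The B cell receptor's signalling chains and surface partners were 8 of the genes, of which 5 were called lower, 1 was called higher and 2 were not called. Cd79a (ENSMUSG00000003379, chr7:24897381-24902197, plus strand in GRCm38), which encodes the signalling chain Ig-alpha, had 0.372, 0.725, 0.483 and 2.04 CPM in obese tumours, against 15.1, 16.3, 7.10 and 13.2 CPM in lean tumours. The groups did not overlap, and Cd79a was called lower (log2 fold change -3.82 ± 0.62, edgeR adjusted p = 0.00188), with a log2 fold change of -4.58 without obese tumour 4. Cd79b (ENSMUSG00000040592, chr11:106311341-106314762, minus strand), encoding the partner chain Ig-beta, had 1.65, 2.21, 3.83 and 6.43 CPM in obese tumours, against 15.6, 18.02, 8.53 and 13.1 CPM in lean tumours. Here, too, no obese tumour reached the lean range, and obese tumour 4 came nearest to it (log2 fold change -1.97 ± 0.47, edgeR adjusted p = 0.00870). Ms4a1 (ENSMUSG00000024673, chr19:11249675-11266241, minus strand), which encodes the B cell surface protein CD20, had 0.248, 0.115, 0.174 and 0.240 CPM in obese tumours, against 4.51, 7.52, 2.21 and 3.55 CPM in lean tumours. The obese values rest on 6, 7, 9 and 10 counts per library, below the lean tumours' range of 113 to 393 counts (log2 fold change -4.53 ± 0.52, edgeR adjusted p = 0.000455).

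The CD79 chains work as a pair, and the ratio of their counts did not overlap between the groups. Within each tumour, Cd79a had 0.225, 0.328, 0.126 and 0.317 counts per Cd79b count in obese tumours, against 0.964, 0.903, 0.833 and 1 in lean tumours. No scaling enters these ratios, which are given without a test. In obese tumours the mean Cd79b level was 2.47 CPM per kb of exon and that of Cd79a 0.621 CPM per kb, while in lean tumours they lay close together, at 9.66 and 8.85 CPM per kb.

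Blk, a Src family kinase of B cells (ENSMUSG00000014453, chr14:63372836-63417037, minus strand), averaged 0.237 ± 0.150 CPM in obese tumours and 3 ± 0.650 CPM in lean tumours (log2 fold change -3.64 ± 0.51, edgeR adjusted p = 0.00108). Its obese values ran from 0.0989 to 0.445 CPM and its lean values from 2.11 to 3.66 CPM, with no overlap. Cd22 (ENSMUSG00000030577, chr7:30865402-30880342, minus strand), an inhibitory co-receptor that binds sialic acid, had 4.21, 3.54, 4.72 and 7.68 CPM in obese tumours, against 11.5, 11.9, 12.1 and 16.6 CPM in lean tumours. Lean tumour 4 was the highest and no obese tumour reached the lean range (log2 fold change -1.37 ± 0.29, edgeR adjusted p = 0.00583), and 9.5% of its exon bases are overlapped by a gene on the other strand, whose reads cannot be told apart if strand was not used in counting. Bank1, a scaffold protein of B cell receptor signalling (ENSMUSG00000037922, chr3:136053363-136326066, minus strand), had 0.784, 2.32, 1.55 and 3.05 CPM in obese tumours, against 2.38, 5.27, 1.70 and 2.06 CPM in lean tumours. Its groups overlapped and it was not called (log2 fold change -0.56 ± 0.53, edgeR adjusted p = 0.372).

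A pair of surface proteins shared with myeloid cells went the other way or did not pass the test. Cd180 (ENSMUSG00000021624, chr13:102693558-102739629, plus strand), a relative of the Toll-like receptors found on B cells, macrophages and dendritic cells, had 32.0, 39.8, 42.4 and 70.6 CPM in obese tumours, against 16.4, 12.4, 17.3 and 21.6 CPM in lean tumours. All obese tumours were above all lean tumours, and Cd180 was the only gene of the list called higher (log2 fold change 1.45 ± 0.28, edgeR adjusted p = 0.00375). Cd37, a tetraspanin of B cells and other leukocytes (ENSMUSG00000030798, chr7:45233632-45239115, minus strand), had 33.1, 25.9, 20.7 and 20.7 CPM in obese tumours, against 21.5, 13.1, 17.8 and 21.4 CPM in lean tumours, with overlapping groups and no call (log2 fold change 0.44 ± 0.23, edgeR adjusted p = 0.122). In obese tumours these genes held the highest mean levels of the 19 per length of exon, at 10.2 CPM per kb for Cd180 and 7.12 CPM per kb for Cd37. In lean tumours they ranked behind Jchain, Cd79b, Cd79a, Mzb1 and Pou2af1.

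**Figure D2:**
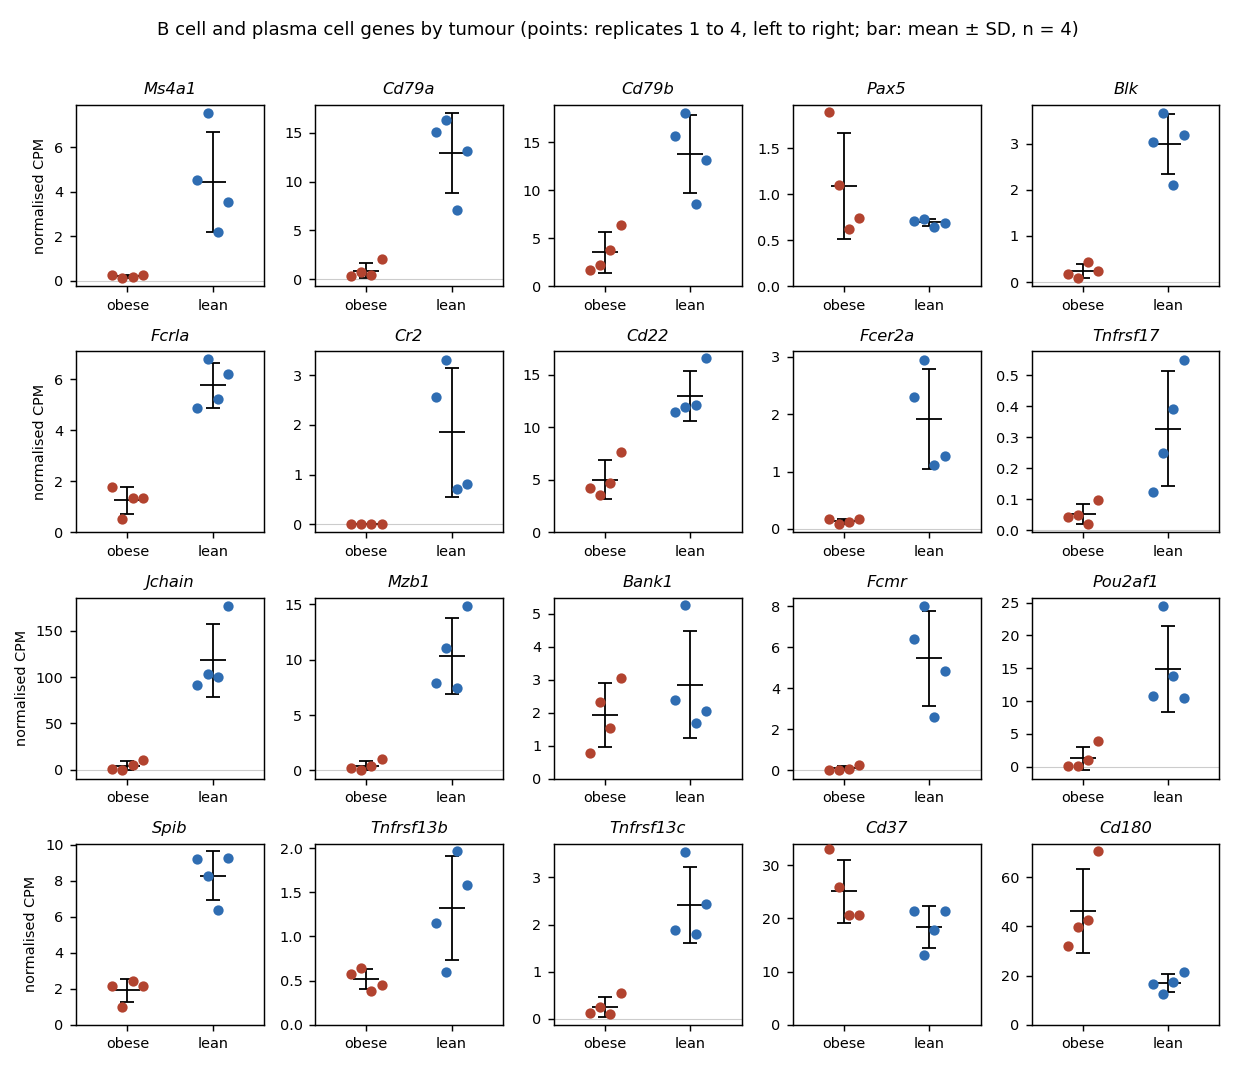
Normalised CPM (y axes, a scale of its own per gene) of the 20 B cell and plasma cell genes with any count, in obese tumours (red, left) and lean tumours (blue, right); points are tumours 1 to 4 from left to right, bars the mean ± SD of 4. Jchain, Fcmr, Cd79a and Ms4a1 are lower in every obese tumour than in any lean tumour. Pax5, Bank1 and Cd37 overlap between groups, and Cd180 is higher in every obese tumour.

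Among 3 transcription regulators, Pou2af1 and Spib were called lower and Pax5 was not called. Pou2af1 (ENSMUSG00000032053, chr9:51213708-51240080, plus strand), the coactivator that binds Oct1 and Oct2 on octamer sites, had 0.0826, 0.0659, 1.03 and 3.91 CPM in obese tumours, against 10.8, 24.5, 13.9 and 10.5 CPM in lean tumours. Obese tumours 1 and 2 lay far below obese tumours 3 and 4, and no obese tumour reached the lean range (log2 fold change -3.55 ± 1.20, edgeR adjusted p = 0.0336). This call rests on single tumours: the edgeR adjusted p was 0.0503 without obese tumour 1, 0.0664 without lean tumour 2, 0.0581 without lean tumour 3 and 0.0525 without lean tumour 4. Without obese tumour 4 the log2 fold change was -5.19. Spib (ENSMUSG00000008193, chr7:44525993-44532071, minus strand), an ETS family factor of B cells and plasmacytoid dendritic cells, had 2.15, 0.989, 2.44 and 2.14 CPM in obese tumours, against 9.22, 8.25, 6.36 and 9.27 CPM in lean tumours. Its values were tight within both groups and did not overlap (log2 fold change -2.10 ± 0.34, edgeR adjusted p = 0.00195).

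Pax5 (ENSMUSG00000014030, chr4:44524757-44710487, minus strand), the factor that commits cells to the B lineage, had 1.90, 1.10, 0.619 and 0.744 CPM in obese tumours, against 0.711, 0.728, 0.644 and 0.692 CPM in lean tumours. The lean tumours lay within a narrow band, obese tumours 1, 2 and 4 were above it and obese tumour 3 was below it (log2 fold change 0.64 ± 0.40, edgeR adjusted p = 0.194). Per length of exon, Pax5 averaged 0.123 CPM per kb in obese tumours and 0.0784 CPM per kb in lean tumours, the lowest lean level of the 19 genes. A gene on the other strand overlaps 8.6% of its exon bases.

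The stretches of 250 bases before the start sites were taken from RefSeq (GRCm38.p6) for the 16 of 31 genes that matched. Ms4a1, Cd79b, Blk, Mzb1 and the 11 constant region genes were not matched. The motifs searched, on both strands, were the octamer ATGCAAAT, its shorter form TGCAAAT that lies within it, the ETS site GAGGAAG, the EBF1 type palindrome of TCCC and GGGA with NN between them, and the E-box CAGCTG. The octamer was in the stretch of 0 of the 16 genes and in 1.6% of 32851 stretches of the same length across RefSeq. The shorter form was before Spib and Pou2af1 (3.56% of all stretches), the ETS site before Cd37 (10.6%), the palindrome before Cd22 (0.779%) and the E-box before Fcmr, Fcer2a and Tnfrsf13c (13%). The stretches of Pou2af1, Spib and Tnfrsf13c, which were called lower, are printed 5′ to 3′ on the strand of the gene. They hold a match and lie outside the gene in GENCODE M21. Capitals mark the match, which starts 231 bases before the start site in Pou2af1, 248 in Spib and 146 in Tnfrsf13c. A match is a string of letters and was not tested as a site.
Pou2af1 (chr9:51213440-51213689, plus strand): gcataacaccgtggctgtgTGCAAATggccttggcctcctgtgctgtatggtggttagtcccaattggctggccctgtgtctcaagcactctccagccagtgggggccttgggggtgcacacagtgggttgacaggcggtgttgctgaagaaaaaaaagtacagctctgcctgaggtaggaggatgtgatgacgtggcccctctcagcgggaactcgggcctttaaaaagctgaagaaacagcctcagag
Spib (chr7:44532072-44532321, minus strand): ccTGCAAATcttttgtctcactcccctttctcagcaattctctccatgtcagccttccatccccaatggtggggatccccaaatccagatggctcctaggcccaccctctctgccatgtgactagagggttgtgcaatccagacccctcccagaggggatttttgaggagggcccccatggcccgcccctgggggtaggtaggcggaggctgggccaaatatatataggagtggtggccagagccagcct
Tnfrsf13c (chr15:82224381-82224630, minus strand): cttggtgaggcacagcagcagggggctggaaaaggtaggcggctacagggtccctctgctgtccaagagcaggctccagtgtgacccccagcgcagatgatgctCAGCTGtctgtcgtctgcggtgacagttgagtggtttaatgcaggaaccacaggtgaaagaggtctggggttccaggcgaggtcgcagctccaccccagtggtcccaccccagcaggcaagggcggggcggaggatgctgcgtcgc

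Of the complement and Fc receptors of B cells, Fcmr and Fcrla were called lower. Cr2 and Fcer2a were called lower too, but reached the level of the filter on low counts only in lean tumours. Their calls are therefore no support, though they are within the 15 genes called lower. Fcmr reached that level in 1 obese tumour. Cr2 (ENSMUSG00000026616, chr1:195136811-195176716, minus strand), encoding complement receptors of B cells and follicular dendritic cells, had 0 counts in each of the 4 obese tumours, against 2.55, 3.31, 0.702 and 0.817 CPM in lean tumours. Set against 3 counts over the obese group (0.0168 CPM), it was at least 110-fold lower in obese tumours, a limit that covers counting error only (edgeR adjusted p = 0.00290). Fcmr (ENSMUSG00000042474, chr1:130865669-130880791, plus strand), the receptor for the constant part of IgM, had 0.0413, 0.0330, 0.0773 and 0.240 CPM in obese tumours, against 6.43, 8.02, 2.60 and 4.83 CPM in lean tumours. Its obese values ran down to the worth of 1 to 4 counts in tumours 1 to 3 and no tumour came near the lean range (log2 fold change -5.76 ± 0.74, edgeR adjusted p = 0.000753). Without obese tumour 4 its log2 fold change was -6.66.

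Fcer2a (ENSMUSG00000005540, chr8:3681737-3694175, minus strand), the low-affinity IgE receptor CD23, had 0.165, 0.0824, 0.116 and 0.168 CPM in obese tumours, against 2.31, 2.95, 1.11 and 1.28 CPM in lean tumours. Lean tumours 1 and 2 were above lean tumours 3 and 4, in the same way as for Cr2, and the groups did not overlap (log2 fold change -3.85 ± 0.48, edgeR adjusted p = 0.000682). Fcrla (ENSMUSG00000038421, chr1:170917576-170927583, minus strand), an intracellular protein of the Fc receptor family in B cells, had 1.78, 0.544, 1.33 and 1.37 CPM in obese tumours, against 4.86, 6.78, 5.23 and 6.20 CPM in lean tumours. Every obese tumour was below every lean tumour, with obese tumour 2 lowest (log2 fold change -2.21 ± 0.39, edgeR adjusted p = 0.00285).

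Receptors of the survival cytokines BAFF and APRIL were lower where they could be tested. Tnfrsf13c (ENSMUSG00000068105, chr15:82221743-82224369, minus strand), the BAFF receptor of mature B cells, had 0.124, 0.247, 0.0967 and 0.552 CPM in obese tumours, against 1.89, 3.54, 1.795 and 2.43 CPM in lean tumours. The groups did not overlap (log2 fold change -3.22 ± 0.60, edgeR adjusted p = 0.00338), and without obese tumour 4 the log2 fold change was -3.89. Tnfrsf13b (ENSMUSG00000010142, chr11:61126755-61149372, plus strand), encoding TACI, which binds both cytokines, had 0.578, 0.643, 0.387 and 0.456 CPM in obese tumours, against 1.15, 0.594, 1.97 and 1.58 CPM in lean tumours. Lean tumour 2 lay inside the obese range (log2 fold change -1.36 ± 0.43, edgeR adjusted p = 0.0257). This call ended without obese tumour 3 (edgeR adjusted p = 0.0505), obese tumour 4 (0.0686), lean tumour 3 (0.0821) or lean tumour 4 (0.0692).

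Tnfrsf17 (ENSMUSG00000022496, chr16:11313812-11320074, plus strand), encoding the plasma cell receptor BCMA, was below the filter, with 0.0413, 0.0494, 0.0193 and 0.0960 CPM in obese tumours, against 0.123, 0.249, 0.390 and 0.5503 CPM in lean tumours. With no filter on low counts it had a log2 fold change of -2.59 ± 0.69 (edgeR adjusted p = 0.0158). The ligands were measured too, and are named after their values were seen. Tnfsf13, encoding APRIL, averaged 3.01 ± 2.88 CPM in obese tumours and 14.4 ± 5.78 CPM in lean tumours (log2 fold change -2.25 ± 0.67, edgeR adjusted p = 0.0211), a call that ended without obese tumour 2 (edgeR adjusted p = 0.0556) or obese tumour 4 (0.0547); without obese tumour 3 its log2 fold change was -3.14. Tnfsf13b, encoding BAFF, averaged 3.92 ± 2.74 CPM in obese tumours and 10.5 ± 3.06 CPM in lean tumours and was not called (log2 fold change -1.43 ± 0.54, edgeR adjusted p = 0.0508), though it was called under 9 of 16 other settings.

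Both secretory proteins of plasma cells were called lower. Jchain (ENSMUSG00000067149, chr5:88519809-88527891, minus strand), which joins IgA and IgM into polymers, had 0.743, 0.0659, 4.95 and 10.5 CPM in obese tumours, against 91.8, 103, 100 and 177 CPM in lean tumours. Obese tumour 2 had hardly any Jchain RNA, at 4 counts, and obese tumour 4 the most, at 439 counts, while the lean tumours spanned 1.93-fold. No obese tumour reached the lean range (log2 fold change -4.85 ± 1.23, edgeR adjusted p = 0.0117), and without obese tumour 4 the log2 fold change was -5.91. Per length of exon, Jchain stood first in lean tumours at 46.9 CPM per kb, with 1.62 CPM per kb in obese tumours.

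Mzb1 (ENSMUSG00000024353), a chaperone of the endoplasmic reticulum in marginal zone B cells and plasma cells, had 0.248, 0.0494, 0.406 and 1.03 CPM in obese tumours, against 7.92, 11.1, 7.43 and 14.9 CPM in lean tumours. As for Jchain, obese tumour 2 was the lowest and obese tumour 4 the highest of the obese group, and no obese tumour reached the lean range (log2 fold change -4.57 ± 0.82, edgeR adjusted p = 0.00294). Its level is uncertain, since 57.2% of its exon bases are shared on the same strand with SPATA24 and 46.5% of its 50-base transcript windows are found in no other gene. Without obese tumour 4 its log2 fold change was -5.45.

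Ratios of counts within a library, which no scaling changes, set plasma cell, B cell and other leukocyte RNA against each other, and they are given without a test. Per count of Cd79a there were 2, 0.0909, 10.2 and 5.16 counts of Jchain in obese tumours, against 6.10, 6.34, 14.1 and 13.5 in lean tumours. These ranges overlapped, in obese tumour 3 only. Per count of Ptprc, the leukocyte antigen CD45, there were 0.00271, 0.00617, 0.00282 and 0.0110 counts of Cd79a in obese tumours, against 0.122, 0.183, 0.0608 and 0.110 in lean tumours. Jchain had 0.00541, 0.000561, 0.0288 and 0.0568 counts per Ptprc count in obese tumours, against 0.747, 1.16, 0.856 and 1.47 in lean tumours. Neither of these ratios to Ptprc overlapped between the groups. Per count of Cd3e, a T cell receptor chain, Cd79a had 0.184, 0.629, 0.0977 and 0.603 counts in obese tumours, against 0.861, 2.54, 0.481 and 0.955 in lean tumours, and these ranges overlapped.

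**Figure D3:**
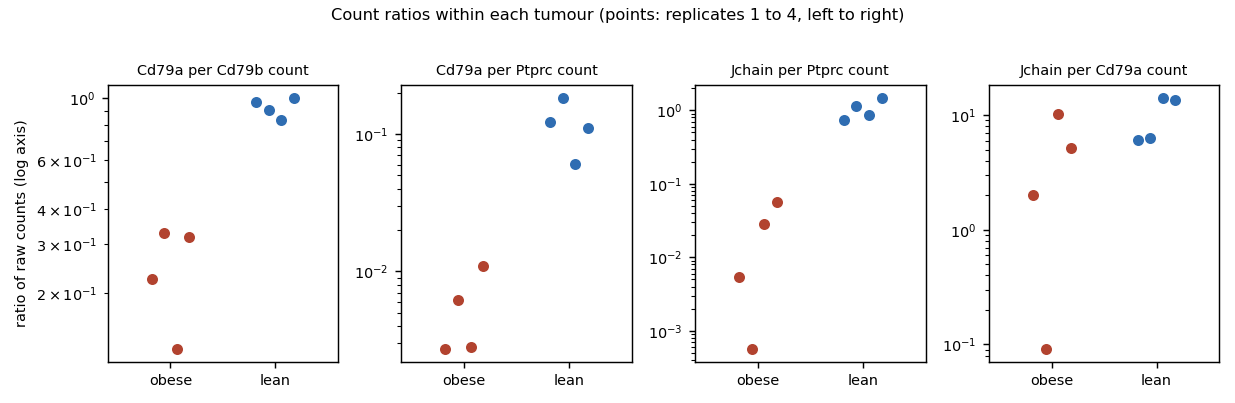
Counts of Cd79a or Jchain per count of a second gene in the same library (y axes, log scale), with obese tumours (red) left of lean tumours (blue) and tumours 1 to 4 from left to right. Cd79a per Cd79b lies between 0.126 and 0.328 in obese tumours and between 0.833 and 1 in lean tumours, while Jchain per Cd79a spans 0.0909 to 10.2 in obese tumours and 6.10 to 14.1 in lean tumours.

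Within the lean group, tumours did not rank alike for all genes. Among the 15 genes called lower, lean tumour 2 was the highest lean tumour for 10, lean tumour 4 for 4 (Cd22, Jchain, Mzb1 and Spib) and lean tumour 3 for Tnfrsf13b. Lean tumour 3 was the lowest lean tumour for 10 of them. In the obese group, tumour 4 was the highest for 9, and its Cd79a, Cd79b, Jchain and Mzb1 were each the highest of that group.

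The constant region genes of antibodies could not be described from these counts. Ighm, Ighd, Ighg1, Ighg2b, Ighg2c, Ighg3 and Igha of the heavy chain locus on chr12, Igkc on chr6, and Iglc1, Iglc2 and Iglc3 on chr16 were listed at 0 in all 8 libraries. So were all 699 antigen receptor genes of the file: 13 immunoglobulin constant genes, 255 immunoglobulin V, D and J segments, 161 immunoglobulin pseudogenes, 8 T cell receptor constant genes, 218 T cell receptor V, D and J segments and 44 T cell receptor pseudogenes. For comparison, 4471 of 21798 protein coding genes (20.5%) had no count in any library, and all 37 mitochondrial genes had none. Lean tumours with 91.8 to 177 CPM of Jchain thus had no count of any antibody chain. Of the 50-base windows of their transcripts, 100% were found in no other gene for Ighm, Ighd, Igha, Igkc and Iglc1, and 77.7 to 99.6% for the other 6 constant genes. No base of the exons of the heavy chain genes or Igkc is shared with another gene on the same strand. These zeros are not read as absence of antibody RNA, and their cause was not tested.

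**Figure D4:**
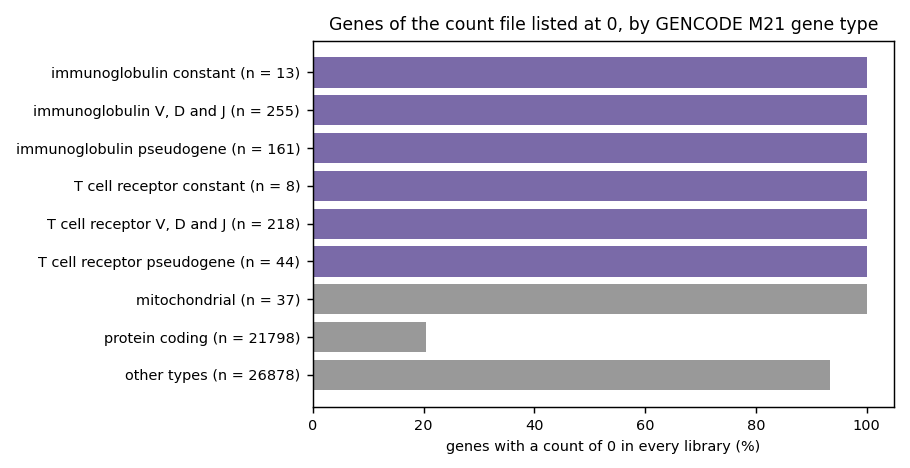
Share of the file's genes with a count of 0 in all 8 libraries (x axis, percent), by GENCODE M21 gene type (y axis, with the number of genes). Every class of antigen receptor gene and the mitochondrial genes stand at 100%, and protein coding genes at 20.5%.

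Genes of B cell receptor signalling outside the list were called in both directions. Of 20 signalling genes, 5 were called lower (25%, against 28.4% of all tested genes) and 4 higher (20%, against 30.9%). Their median log2 fold change was 0.07, against -0.04 for all tested genes. Siglecg, an inhibitory lectin of B cells, averaged 0.963 ± 0.427 CPM in obese tumours and 3.61 ± 0.534 CPM in lean tumours and was among those lower (log2 fold change -1.91 ± 0.39, edgeR adjusted p = 0.00468). Lyn, a kinase of B cells and myeloid cells, averaged 143 ± 18.4 CPM in obese tumours and 79.9 ± 9.46 CPM in lean tumours and was higher (log2 fold change 0.84 ± 0.14, edgeR adjusted p = 0.00205). Fcgr2b, the inhibitory Fc receptor of B cells and macrophages, averaged 120.3 ± 18.2 CPM in obese tumours and 56.2 ± 11.1 CPM in lean tumours and was also higher (log2 fold change 1.10 ± 0.18, edgeR adjusted p = 0.00186).

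Of 15 genes of B lineage development, 12 were tested, 7 were called lower and 0 higher, with a median log2 fold change of -1.69. Ikzf3, the lymphoid factor Aiolos, averaged 2.71 ± 1.124 CPM in obese tumours and 11.9 ± 2.42 CPM in lean tumours (log2 fold change -2.13 ± 0.36, edgeR adjusted p = 0.00218), and Bcl11a, needed for early B cells, averaged 0.5999 ± 0.193 CPM in obese tumours and 2.22 ± 0.462 CPM in lean tumours (log2 fold change -1.89 ± 0.36, edgeR adjusted p = 0.00356). Vpreb3, a protein of the pre-B cell receptor assembly, averaged 0.0220 ± 0.0258 CPM in obese tumours and 0.401 ± 0.153 CPM in lean tumours (log2 fold change -3.80 ± 0.75, edgeR adjusted p = 0.00415). Without obese tumour 2 its log2 fold change was -4.40. Like another gene of the 7, Vpreb3 stayed under the filter's level of 0.21 CPM in every obese tumour. Both passed only through the lean tumours, so their calls are no support. Foxo1, a factor of B cell development that other cell types also express, averaged 11.1 ± 12.4 CPM in obese tumours and 89.0 ± 14.2 CPM in lean tumours (log2 fold change -2.995 ± 0.69, edgeR adjusted p = 0.00798), and without obese tumour 3 its log2 fold change was -4.14. Of 10 germinal centre and class switch genes, 8 were tested, 1 was lower and 1 higher, with a median of -0.15. Each is 12.5% of those tested, against 28.4% and 30.9% of all tested genes.

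Genes of the plasma cell programme were called in both directions. Of its 16 genes, 7 were called lower and 3 higher, the median log2 fold change was -0.14, and the summed level was 1800 to 1990 CPM in obese tumours and 1780 to 1910 CPM in lean tumours. Derl3, a protein of endoplasmic reticulum degradation in secretory cells, averaged 0.204 ± 0.114 CPM in obese tumours and 1.73 ± 0.549 CPM in lean tumours (log2 fold change -3.04 ± 0.49, edgeR adjusted p = 0.00192). Irf4, a factor required for plasma cells, averaged 2.12 ± 0.668 CPM in obese tumours and 6.25 ± 1.16 CPM in lean tumours (log2 fold change -1.56 ± 0.32, edgeR adjusted p = 0.00484). Edem1, a widely expressed protein of glycoprotein degradation, was higher, at 287 ± 33.7 CPM in obese tumours and 116 ± 18.04 CPM in lean tumours (log2 fold change 1.31 ± 0.15, edgeR adjusted p = 0.000425). Of plasma cell markers named after their values were seen, Sdc1, also a protein of epithelial cells, was higher at 508 ± 166 CPM in obese tumours and 243 ± 63.6 CPM in lean tumours (log2 fold change 1.06 ± 0.27, edgeR adjusted p = 0.0105), and Prdm1 averaged 20.5 ± 13.8 CPM in obese tumours and 13.6 ± 4.80 CPM in lean tumours and was not called (log2 fold change 0.59 ± 0.57, edgeR adjusted p = 0.384).

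Of 18 survival and homing genes, 15 were tested, 8 were lower and 2 higher, with a median log2 fold change of -1.49. Cxcr5, the receptor that guides B cells to follicles, averaged 0.577 ± 0.338 CPM in obese tumours and 4.04 ± 1.26 CPM in lean tumours (log2 fold change -2.83 ± 0.55, edgeR adjusted p = 0.00411). Ltb, the lymphotoxin that organises lymphoid tissue, averaged 3.26 ± 1.65 CPM in obese tumours and 23.8 ± 9.89 CPM in lean tumours (log2 fold change -2.87 ± 0.50, edgeR adjusted p = 0.00265), and the chemokine receptor Ccr6 averaged 0.310 ± 0.0802 CPM in obese tumours and 1.38 ± 0.321 CPM in lean tumours (log2 fold change -2.13 ± 0.35, edgeR adjusted p = 0.00200). Cxcl12, the chemokine that holds plasma cells in niches, averaged 14.02 ± 6.55 CPM in obese tumours and 157 ± 139 CPM in lean tumours (log2 fold change -3.49 ± 0.72, edgeR adjusted p = 0.00527), and without lean tumour 2 its log2 fold change was -2.71.

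Of 9 tested genes that carry or bind immunoglobulin, 4 were higher and 0 lower, with a median of 0.54. Fcgr1, the high-affinity IgG receptor of myeloid cells, averaged 128 ± 29.7 CPM in obese tumours and 33.8 ± 12.7 CPM in lean tumours (log2 fold change 1.92 ± 0.32, edgeR adjusted p = 0.00205). Pigr, the epithelial receptor that carries J chain polymers into secretions, named after its values were seen, had 0.537, 0, 329 and 7.03 CPM in obese tumours, against 647, 199, 540.3 and 713 CPM in lean tumours. It was not called (log2 fold change -2.64 ± 2.03, edgeR adjusted p = 0.282), and without obese tumour 3 it was (log2 fold change -7.68, edgeR adjusted p = 0.00442). All 8 genes of MHC class II presentation were lower, with a median of -2.22 and a summed level of 669 to 4270 CPM in obese tumours and 5050 to 16100 CPM in lean tumours. Of these, H2-Ob, which tunes peptide loading in B cells, averaged 2.37 ± 1.25 CPM in obese tumours and 11.6 ± 2.05 CPM in lean tumours (log2 fold change -2.28 ± 0.43, edgeR adjusted p = 0.00346).

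Markers of other cell types were read beside the B cell genes. Of 5 pan-leukocyte markers, 1 was higher and 0 lower, with summed levels of 544 to 740 CPM in obese tumours and 443 to 817 CPM in lean tumours, and Ptprc averaged 153 ± 31.1 CPM in obese tumours and 112 ± 15.8 CPM in lean tumours without a call (log2 fold change 0.45 ± 0.18, edgeR adjusted p = 0.0571), though without obese tumour 2 it was called higher (edgeR adjusted p = 0.0273). Of 10 tested T cell markers, 9 were lower, with a median log2 fold change of -2.05. Their summed level was 30.1 to 91.4 CPM in obese tumours and 114 to 290 CPM in lean tumours, and the constant gene Trac was at 0. Of 9 macrophage markers, 4 were higher and 1 lower, with a median log2 fold change of -0.54, at 1820 to 2350 CPM in obese tumours and 1250 to 3380 CPM in lean tumours. Itgam, the integrin CD11b of myeloid cells and the marker with the largest increase, averaged 177 ± 30.3 CPM in obese tumours and 22.3 ± 8.25 CPM in lean tumours (log2 fold change 2.99 ± 0.27, edgeR adjusted p = 0.000267). Csf1r, the macrophage growth factor receptor, was lower (log2 fold change -0.54 ± 0.20, edgeR adjusted p = 0.0429), a call that ended when any tumour other than lean tumour 2 was left out (edgeR adjusted p = 0.0522 to 0.107). The complement genes C1qa, C1qb and C1qc and the lysozyme gene Lyz2 had log2 fold changes of -0.75, -0.58, -0.75 and -0.61 and were not called, though without lean tumour 2 each was called lower (edgeR adjusted p = 0.00367 to 0.0222). These 5 genes were named after their values were seen. Of 6 markers of plasmacytoid dendritic cells, which also use Spib, 2 were lower and 1 higher, at 532 to 611 CPM in obese tumours and 221 to 648 CPM in lean tumours; Siglech averaged 2.23 ± 0.935 CPM in obese tumours and 7.48 ± 1.67 CPM in lean tumours (log2 fold change -1.74 ± 0.40, edgeR adjusted p = 0.00725). Called lower were 1 of 5 NK cell markers and 2 of 5 endothelial markers, called higher was 1 of 5 tested neutrophil markers, and 5 adipocyte markers and 1 erythroid marker did not pass the edgeR test. Over all tested genes 28.4% were called lower and 30.9% higher, so these small counts are not read as cell type changes. The part of these cells in the results above was not tested.

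Mammary gland 4 of the mouse holds a lymph node, so markers of lymph node stroma and high endothelial venules were read as well. All 3 that could be tested were lower, at a summed 0.248 to 1.13 CPM in obese tumours and 4.43 to 6.41 CPM in lean tumours, with no overlap, and the other 2 of the 5, Ccl21a and Ccl19, were at 0 in every library. Reads of Ccl21a and Ccl19 may be split among near-identical copies. The median log2 fold change of the 3 tested markers was -2.85. Of these, Glycam1 is made by mammary epithelium as well, so it is not particular to lymph node. Glycam1, a ligand of lymphocyte homing on venules, had 0.206, 0, 0.309 and 0.0240 CPM in obese tumours, against 2.48, 1.65, 1.13 and 3.69 CPM in lean tumours (log2 fold change -4.07 ± 1.05, edgeR adjusted p = 0.0119; log2 fold change -5.19 without obese tumour 3). Madcam1, a homing receptor ligand, had 0.0413, 0.0330, 0.0580 and 0.1199 CPM in obese tumours, against 0.392, 0.498, 0.702 and 0.284 CPM in lean tumours (log2 fold change -2.85 ± 0.53, edgeR adjusted p = 0.00324). No obese tumour reached the filter's level of 0.21 CPM for Madcam1. It passed only through the lean tumours, so its call is no support, though it is among the 3. Cxcl13, the chemokine of B cell follicles, had 0, 0.313, 0.213 and 0.984 CPM in obese tumours, against 1.94, 3.68, 2.60 and 2.43 CPM in lean tumours (log2 fold change -2.79 ± 0.90, edgeR adjusted p = 0.0277), a call that ended without obese tumour 2 (edgeR adjusted p = 0.0667), lean tumour 2 (0.0534) or lean tumour 3 (0.0537), and its log2 fold change was -3.79 without obese tumour 4. The part of lymph node tissue in the lower B cell RNA was not tested.

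Epithelial markers were at a summed 66.2 to 700 CPM in obese tumours and 1090 to 2320 CPM in lean tumours, and 3 of 6 were called lower. Their median log2 fold change was -3.04, beside -3.22 for the B cell and plasma cell genes. In all 6, every obese tumour lay below every lean tumour, as in 28.1% of all tested genes. Epcam, named after its values were seen, had 0.495, 4.20, 175 and 5.52 CPM in obese tumours, against 531, 232, 447 and 539 CPM in lean tumours. Obese tumour 3 stood far above the other obese tumours and below every lean tumour, and Epcam was not called (log2 fold change -3.24 ± 1.55, edgeR adjusted p = 0.101), though without obese tumour 3 it was (log2 fold change -6.96, edgeR adjusted p = 0.000314). In obese tumour 3 the summed T cell markers (91.4 CPM) and lymph node markers (0.58 CPM) were below every lean tumour. Fewer epithelial cells and less of these RNAs per epithelial cell cannot be told apart, and their part in the results was not tested.

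**Figure D5:**
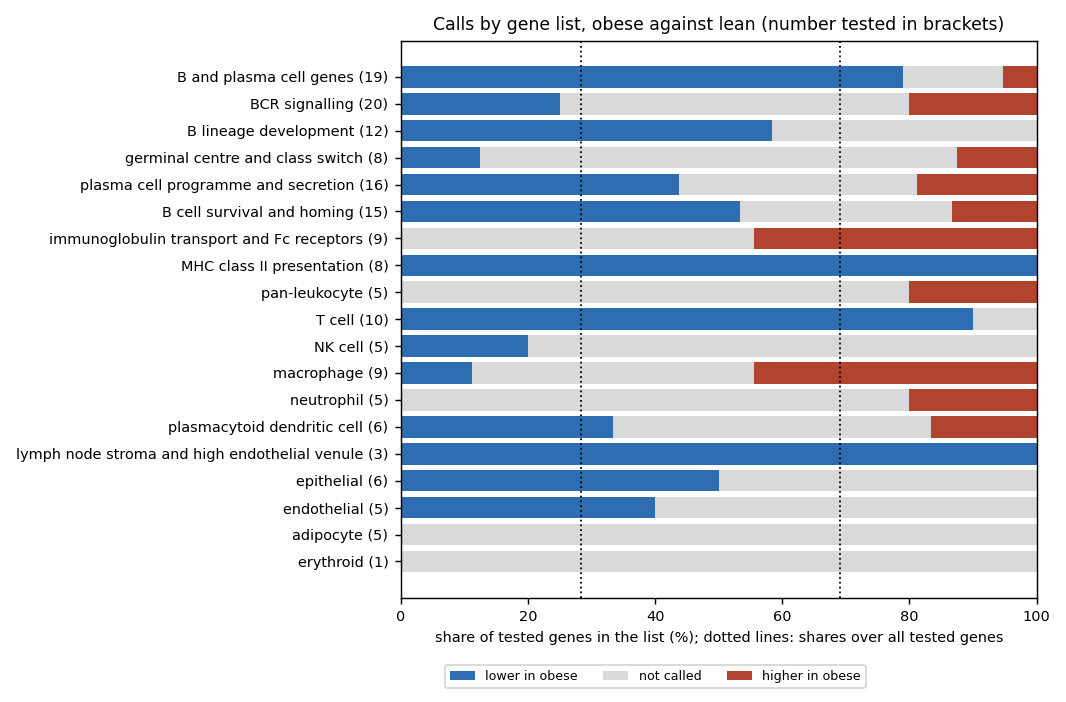
Share of the tested genes of each list (x axis, percent) called lower in obese tumours (blue), not called (grey) or called higher (red), with the number tested in brackets; the dotted lines mark the 28.4% of all tested genes called lower and, from the right edge, the 30.9% called higher. The B and plasma cell genes (78.9% lower), T cell, MHC class II and lymph node lists reach far past the left line, while macrophage markers and immunoglobulin receptors hold 44.4% called higher, beside 11.1% of macrophage markers called lower. The 78.9% includes Cr2 and Fcer2a, which reached the filter's level only in lean tumours. The same holds for Madcam1, 1 of the 3 tested genes of the lymph node list.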

How the data were processed

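Per the labels' protocols, snap-frozen tumours gave total RNA over RNeasy columns, and TruSeq stranded libraries followed. The authors deposited raw counts, the number of reads assigned to each Ensembl gene, with 1 column per tumour. The submitters' processing notes name the build mm10 and the tools STAR 2.5.2b, HTSeq, cutadapt 1.12, CASAVA 1.8 and bcl2fastq 2.18.0.12. The annotation, the version of HTSeq and its strand setting are not given in the sources used here.

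Genes were named through GENCODE M21 (GRCm38, the assembly of mm10), where 49412 of 50143 identifiers matched. The filter on low counts was edgeR's filterByExpr (minimum count 10, minimum total 15). Counts of 14887 genes were scaled by TMM factors. The two-sided test was edgeR's robust quasi-likelihood F test, with Benjamini-Hochberg adjustment over all of them. Fold changes run obese minus lean, with an SE that is the fold change divided by the square root of F, and levels are mean ± SD over 4 tumours. A count of 0 in every library of a group was set at 3 counts over the group for a bound (3 counts are 0.0494 to 0.124 CPM in single libraries). No tumours were duplicates: within a group, counts of any pair differed by a chi-square of 64.5 or more per degree of freedom.

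The 31 genes, the other lists and the tests were chosen with earlier results of these data known. From each other list, up to 4 tested genes with the smallest p could be named, and exceptions are marked; 1 gene so chosen is not reported here. A planned test of summed V segments could not be made, since all were 0. Other settings were DESeq2 size factors, upper quartile factors, library size only, no filter, a filter of 1 CPM in 4 tumours, the DESeq2 Wald test, limma-voom with or without quality weights, and leaving out each tumour. The tools were edgeR 4.0.16, DESeq2 1.42.0 and limma 3.58.1 in R 4.3.3. On simulated data for this comparison (14762 genes), edgeR recovered 12% of genes changed 2-fold, 52.1% at 4-fold, 86% at 8-fold and 89.4% at 16-fold, with 3 false calls.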

Additional observations from a re-analysis of the deposited data

Results flagged for a closer look

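A tumour stood far from the other 3 of its group, by Dixon's ratio of the gap to the range at its 95% limit, in 7 of 117 groups of values examined; chance gives about 1 in 20. Jchain was 177 CPM in lean tumour 4, against 91.8 to 103 CPM in the other lean tumours. Cd22 was 16.6 CPM in lean tumour 4, against 11.5 to 12.1 CPM in the others. Obese tumour 3 had 175 CPM of Epcam, with 0.495 to 5.52 CPM in the other obese tumours, 329 CPM of Pigr, with 0 to 7.03 CPM in the others, and 29.6 CPM of Foxo1, with 3.67 to 6.38 CPM in the others. Lean tumour 2 had 110 CPM of Foxo1, with 80.4 to 84.8 CPM in the other lean tumours, and 65.8 CPM of Lyn, with 83.4 to 85.3 CPM in the others.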

How the results depend on the processing

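Over 16 other settings, the 19 tested B cell and plasma cell genes gave 301 fold changes, of which 292 kept their direction and their side of the threshold and 8 kept only the direction; those 8, when 1 tumour was left out, belong to Pou2af1 and Tnfrsf13b and are given with these genes. Bank1, not called, turned to 0.29 with limma-voom and quality weights. The number called lower was 13 to 16 over the fits that left out a tumour and 13 to 16 over all settings, and 1 was called higher in each. The background changed too. Of all tested genes, 4221 were called lower in the main fit, 3136 without obese tumour 4 (the fewest) and 5810 with limma-voom and quality weights (the most). Cr2, Pax5 and Tnfrsf13b were not tested under the filter of 1 CPM. Upper quartile factors called 3612 genes higher and 5145 lower (41.2% of calls higher, against 52.1%) and shifted the median of all genes by -0.21 on the log2 scale; library size only called 42.3% higher. For 39 other named genes, recomputed after the data were seen, 577 of 621 fold changes kept direction and side. No paired analysis was possible because the labels give each tumour a number of its own. Obese levels that rest on 4 or fewer counts in at least 1 library (Blk, Cr2, Fcer2a, Fcmr, Jchain, Mzb1, Pou2af1, Tnfrsf13c and Tnfrsf17) are limited by depth.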

Other observations

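Further genes of the lists of B cell receptor signalling, B lineage development and plasma cell programme were named after their values were seen. Plcg2 and Blnk pass on the B cell receptor's signal, and myeloid cells also express them. Within the obese group, tumour 3 was highest for both, at 70.5 CPM for Plcg2 and 17.15 CPM for Blnk. Cd79a was highest in obese tumour 4. Plcg2 averaged 35.8 ± 23.9 CPM in obese tumours and 138 ± 46.1 CPM in lean tumours (log2 fold change -1.95 ± 0.48, edgeR adjusted p = 0.00992) and Blnk averaged 10.7 ± 5.21 CPM in obese tumours and 33.9 ± 9.28 CPM in lean tumours (log2 fold change -1.66 ± 0.40, edgeR adjusted p = 0.00880). Bach2, a repressor that holds B cells from becoming plasma cells, had 0.289, 0.939, 4.49 and 1.22 CPM in obese tumours, against 8.61, 19.6, 11.3 and 9.85 CPM in lean tumours (log2 fold change -2.82 ± 0.77, edgeR adjusted p = 0.0152); without obese tumour 3 its log2 fold change was -3.87. Xbp1, which drives antibody secretion and is also used by other secretory cells, averaged 240.4 ± 95.3 CPM in obese tumours and 496 ± 67.9 CPM in lean tumours (log2 fold change -1.04 ± 0.27, edgeR adjusted p = 0.0113). Sec11c, a subunit of the signal peptidase, averaged 53.8 ± 31.4 CPM in obese tumours and 172 ± 11.9 CPM in lean tumours (log2 fold change -1.68 ± 0.36, edgeR adjusted p = 0.00600). Syk, the kinase downstream of the receptor that myeloid cells also use, averaged 70.6 ± 22.7 CPM in obese tumours and 35.3 ± 3.73 CPM in lean tumours and was higher (log2 fold change 1.002 ± 0.24, edgeR adjusted p = 0.00880).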
